A study of Homo sapiens with 3 samples.

Results

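The regions described here are the ΔNp63α and ZNF148 peaks of the outermost parts of the human chromosomes. They were chosen by position alone, as the peaks whose summit lies within 3 Mb of an end of an hg19 chromosome, for chromosomes 1 to 22 and X and without the short arms of the 5 acrocentric chromosomes (13, 14, 15, 21 and 22). This gave 41 chromosome ends and 5012 peaks of 59403 in both lists. They comprised 1213 of 21520 p63 peaks (5.64%, 95% Wilson interval 5.34 to 5.95%) and 3799 of 37883 ZNF148 peaks (10.0%, 9.73 to 10.3%). An end is named below by its chromosome and arm, so that 9q is the end of the long arm of chromosome 9.

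The peaks come from chromatin immunoprecipitation and sequencing (ChIP-seq) in FaDu, an established line from a squamous cell carcinoma of the pharynx, grown untreated. The samples are 3 libraries, one precipitated for ΔNp63α, one precipitated for ZNF148 and one of input DNA, for which no peak list was used here. DNA of 3 independent ChIP assays is named as the source, and each antibody has a single list, so replicate errors cannot be given, no test was made and no p-value is printed. Intervals in parentheses are Wilson intervals at 95%, for counting error alone and with neighbouring peaks taken as independent, and the read depth behind each peak is unknown.

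The end of a human chromosome passes from unique sequence through subtelomeric blocks, present in near-identical copies on several chromosomes, into the telomere repeat. Many human ends are known to be rich in genes and in GC base pairs, while others are poor in both. ΔNp63α, the N-terminally truncated form of the p53 family member p63, maintains the basal cells of squamous epithelia and is abundant in squamous carcinomas. ZNF148, also called ZBP-89, is a Krüppel-type zinc finger protein known to bind GC-rich sites. Genes known from these ends include TERT, the catalytic subunit of telomerase, on 5p, the growth factor receptor gene FGFR3 on 4p, HRAS on 11p, the receptor gene NOTCH1 on 9q and ZNF750, a regulator of epidermal differentiation, on 17q. The gene table used here belongs to GRCh38 and the peaks to hg19, so no peak was assigned to a gene and no sequence was read.

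The 2 proteins were distributed differently at the ends. The ZNF148 list had 30.9 peaks per Mb within 3 Mb of an end, against 11.7 per Mb in the rest of the chromosomes, a ratio of 2.64 (2.55 to 2.73). The p63 list had 9.86 peaks per Mb at the ends and 6.97 per Mb in the rest, a ratio of 1.42 (1.335 to 1.499), both with intervals for counting error. There were 31.9 p63 peaks per 100 ZNF148 peaks at the ends, against 59.6 in the rest. The choice of the stretch set beside the ends decides the p63 ratio. Against the neighbouring 3 to 6 Mb of the same arms it was 1.01, with 9.73 p63 peaks per Mb there, while the ZNF148 ratio was 1.49, with 20.7 per Mb there. The rest of the chromosomes also contains unassembled centromeres and short arms, which carry no peaks and lower its density.

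Within the 3 Mb, ZNF148 density had a broad maximum away from the very end. It was 20.9 peaks per Mb in the outermost 0.5 Mb, 36.4 at 0.5 to 1 Mb, 40.0 at 1 to 1.5 Mb and 39.6 at 1.5 to 2 Mb. It then was 28.9 per Mb at 2 to 2.5 Mb and 19.5 at 2.5 to 3 Mb. Farther in, the values were 22.9 per Mb at 3 to 5 Mb, 16.0 at 5 to 10 Mb, 13.8 at 10 to 20 Mb and 10.5 beyond 20 Mb. The p63 profile was flatter, with 6.98 peaks per Mb in the outermost 0.5 Mb, a highest value of 12.1 at 1.5 to 2 Mb, 10.2 at 3 to 5 Mb and 6.52 beyond 20 Mb. Both lists were sparser in the outermost 0.5 Mb than in the 4 bins that follow it up to 2.5 Mb. In the 0.1 Mb just inside the limit lay 27 p63 and 94 ZNF148 peaks, and in the 0.1 Mb just outside it 42 and 105.

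**Figure D1:**
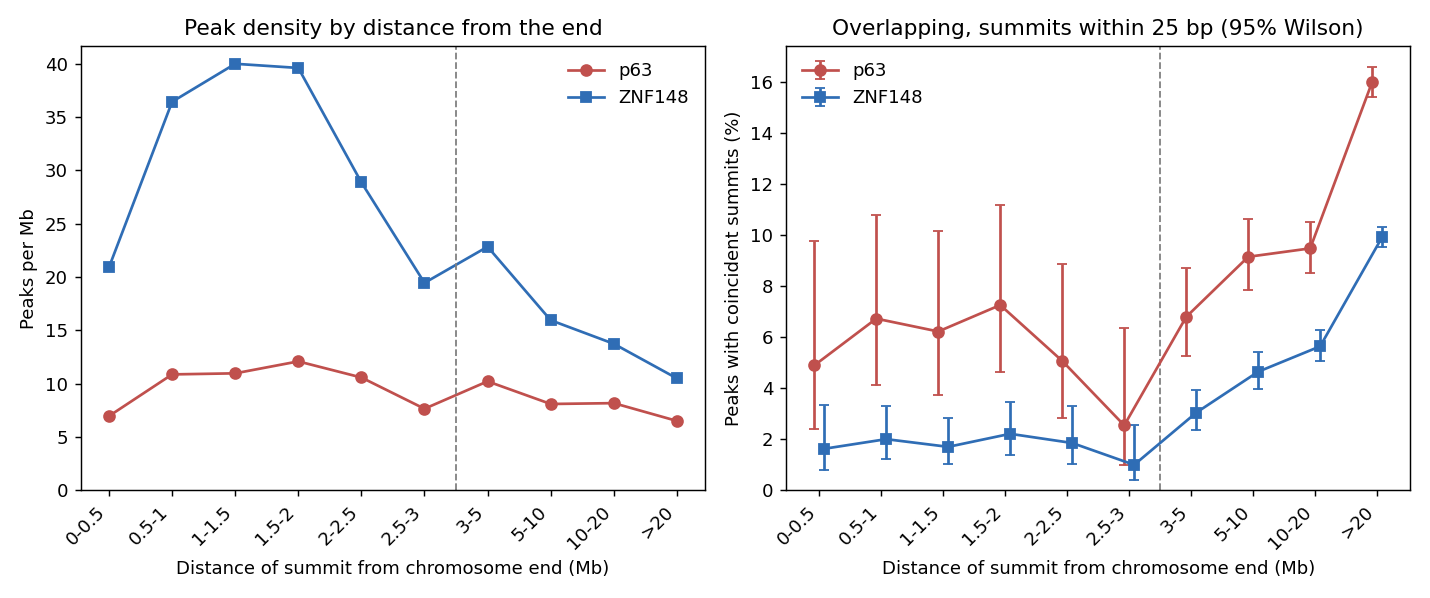
Peaks per Mb (left) and percentage of peaks that overlap a peak of the other list with summits within 25 bp (right, bars are 95% Wilson intervals), by distance of the summit from the chromosome end in Mb, for p63 and ZNF148; the dashed line marks 3 Mb. ZNF148 density reaches 40.0 per Mb at 1 to 1.5 Mb, p63 density stays between 6.52 and 12.1 per Mb, and coincident p63 summits make up 4.90% in the outermost 0.5 Mb and 16.0% beyond 20 Mb.

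Peak strength differed little for p63 and somewhat more for ZNF148. The fold enrichment is the authors' own value for each peak, the ratio of the pile-up at its summit to local background. The median fold of subtelomeric p63 peaks was 13.8, with quartiles of 8.53 and 24.7. In the other p63 peaks it was 13.2, with quartiles of 8.39 and 24.4. For subtelomeric ZNF148 peaks the median was 9.38, with quartiles of 6.88 and 15.01. In the other ZNF148 peaks it was 9.97, with quartiles of 7.21 and 16.7. A fold of 10 or more was reached by 796 subtelomeric p63 peaks (65.6%), against 65.1% of the whole p63 list. For ZNF148 it was reached by 1767 subtelomeric peaks (46.5%, interval 44.9 to 48.1%), against 49.6% of the whole list. Of the subtelomeric ZNF148 peaks, 6.55% (5.81 to 7.39%) were in the most significant of 10 rank classes of their list, against 10.4% (10.1 to 10.7%) in the rest. For p63 the share was 8.82% (7.35 to 10.6%), against 10.1% (9.66 to 10.5%). The least significant of the 10 classes held 11.5% (9.79 to 13.4%) of subtelomeric p63 peaks, against 9.91% (9.51 to 10.3%) of the others. It held 12.4% (11.4 to 13.5%) of subtelomeric ZNF148 peaks, against 9.73% (9.42 to 10.05%) of the others, so that ZNF148 peaks of the ends were shifted towards the weaker classes. Folds under 5 made up 2.06% of subtelomeric p63 peaks and 2.07% of the others, and 1.92% of subtelomeric ZNF148 peaks and 1.78% of the others.

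The strongest subtelomeric p63 peaks were among the strongest of the genome. By q value, 15 of the best 100 and 54 of the best 1000 p63 peaks were subtelomeric, beside 5.64% of the whole list. The first 2 by q value were on 9q, at chr9:139001474-139001871 with a fold of 86.3 and at chr9:139518302-139518886 with a fold of 72.9, ranked 3 and 5 of the whole list. The next was on 7p at chr7:409052-409450, 409 kb from the end, with a fold of 81.3. It was followed by chr12:132643429-132643857 on 12q, with a fold of 95.4. The p63 peak with the highest fold of the ends, 96.2, was on 11p at chr11:534581-534973, 535 kb from the end. These peaks all stood within the best 14 ranks. The remaining 5 of the 10 were chr9:140603075-140603428 (fold 54.5), chr17:80460128-80460533 (59.4), chr11:1851878-1852280 (72.2), chr15:101417617-101418040 (44.1) and chr16:642525-642884 (85.6). Overlap with ZNF148 was found at 5 of these 10 p63 peaks, and 1 had its summit within 25 bp of a ZNF148 summit. In the whole most significant rank class, overlap was found at 43.0% (34.0 to 52.4%) of 107 subtelomeric p63 peaks, against 57.6% (55.5 to 59.8%) of 2045 others.

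Among the strongest subtelomeric ZNF148 peaks, 9q was the most frequent end. The first, on 9q at chr9:140210044-140210984, had a fold of 112.3 and lay 1003 kb from the end, with the nearest p63 summit 2004 bp away. The second was the ZNF148 partner of the first p63 peak, at chr9:139001459-139001978, with a fold of 102.5. Then came chr22:50364337-50364737 on 22q with a fold of 82.7, whose nearest p63 summit was 7390 bp away. On 15q the peak chr15:102192087-102192781 had a fold of 46.3, and on 2q chr2:242254788-242255703 had a fold of 91.1. The remaining 5 were chr14:105864549-105865020 (90.2), chr9:139518171-139518805 (76.4), chr9:139304903-139305225 (84.9), chr12:131323672-131324018 (83.2) and chr17:79319631-79320178 (76.9). Of the 10, 4 were on 9q, the end with most ZNF148 peaks (327 of 3799). Overlap with p63 was found at 2 of the 10, both on 9q. In the whole most significant rank class it was found at 18.1% (13.8 to 23.3%) of 249 subtelomeric ZNF148 peaks, against 48.0% (46.4 to 49.7%) of 3539 others.

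Chromosome ends differed far more in ZNF148 than in p63. The number of p63 peaks in an end ran from 4 to 67 with a median of 27 over the 41 ends. The number of ZNF148 peaks ran from 5 to 327 with a median of 75. ZNF148 was most frequent on 9q with 327 peaks, beside 57 p63 peaks, and on 17q with 277, beside 67. The ends of 20q, 16p and 19p followed with 216, 210 and 199 ZNF148 peaks, beside 47, 50 and 37 p63 peaks. These 5 ends held 21.3% of the subtelomeric p63 peaks and 32.4% of the subtelomeric ZNF148 peaks. Most p63 peaks were on 17q (67), 7p (60), 8q and 9q (57 each) and 16q (51). Across the 41 ends the counts of both lists rose together (Spearman's rho 0.85 and Pearson's r 0.85, which was also 0.85 without 17q and 7p, the ends farthest from the median p63 count). This is a description, since the ends share both libraries and their copy number was not taken into account.

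The sparsest ends were of another kind. On 3p there were 4 p63 and 5 ZNF148 peaks in 3 Mb, with the first ZNF148 peak 851.5 kb from the end. The end of 11q had 7 p63 and 21 ZNF148 peaks. The ends of 2p, 8p and Xp had 9 p63 peaks each, with 13, 15 and 12 ZNF148 peaks. Most of the Xp stretch is the pseudoautosomal region, which the Y chromosome carries too. In 38 ends p63 peaks were fewer than ZNF148 peaks, and in 3 they were more numerous. These were 4q with 16 p63 and 5 ZNF148 peaks, 18q with 14 and 11, and 10p with 23 and 18. Where both ends of a chromosome were covered, they could differ widely, as on chromosome 9 with 21 p63 and 27 ZNF148 peaks at the p end and 57 and 327 at the q end. The q end had more p63 peaks than the p end on 10 of 18 chromosomes, and more ZNF148 peaks also on 10 of 18.

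**Figure D2:**
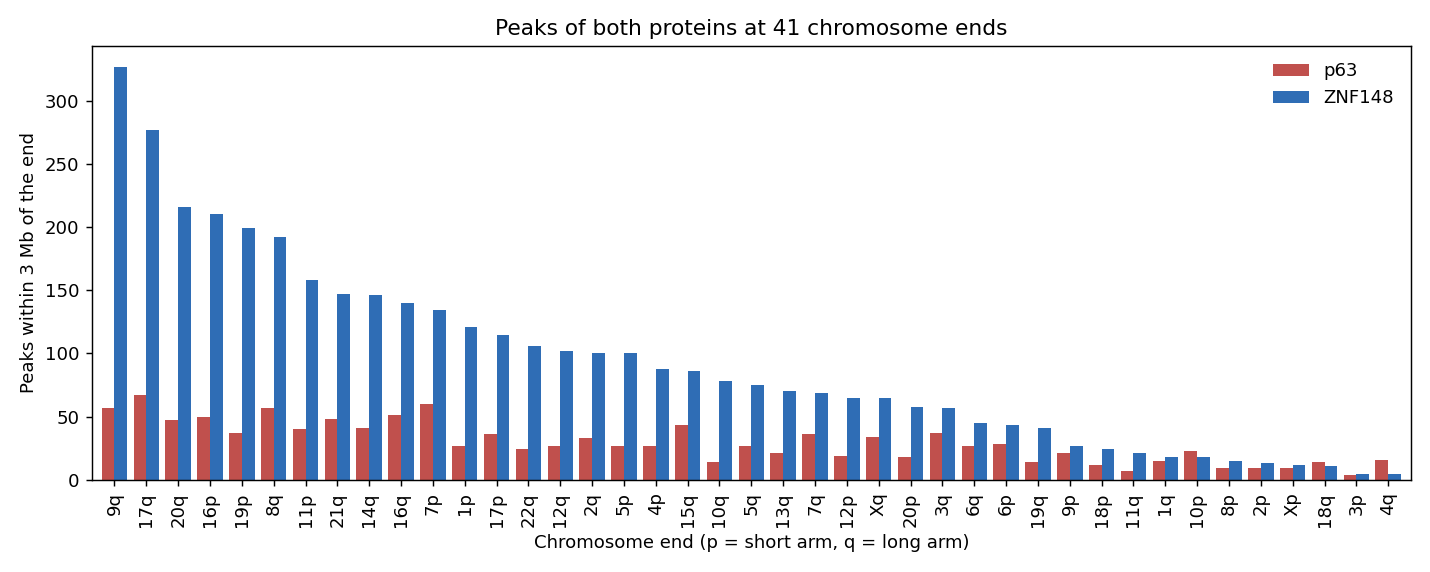
Number of p63 (left bar) and ZNF148 (right bar) peaks within 3 Mb of each of 41 chromosome ends, ordered by the ZNF148 count. ZNF148 counts span 5 to 327, p63 counts span 4 to 67, and p63 exceeds ZNF148 on 10p, 18q and 4q only.

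Against the rest of their own chromosome, the ends were denser in ZNF148 peaks on 22 of 23 chromosomes, with a median ratio of 2.34. The exception was chromosome 3, with a ratio of 0.997, and the highest ratio was 10.0 on chromosome 21. For p63 the ends were denser on 16 of 23 chromosomes, with ratios from 0.846 on chromosome 1 to 3.36 on chromosome 21 and a median of 1.39. The remaining part of chromosome 21 includes an unassembled short arm, as on the other acrocentric chromosomes. How far this bears on the ratios was not tested.

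Most ZNF148 peaks of the ends had close neighbours of their own kind. Runs of at least 3 peaks with gaps of at most 0.0125 Mb held 191 of the 1213 subtelomeric p63 peaks (15.7%, interval 13.8 to 17.9%), against 8.99% (8.60 to 9.39%) of the other p63 peaks. They held 2342 of the 3799 subtelomeric ZNF148 peaks (61.6%, 60.1 to 63.2%), against 33.3% (32.8 to 33.8%) of the other ZNF148 peaks. Runs of at least 5 peaks held 3.13% of the subtelomeric p63 and 43.3% of the subtelomeric ZNF148 peaks, against 1.74% and 17.3% in the rest. More peaks per Mb lengthen such runs by themselves. With the ZNF148 list shortened to as many peaks as the p63 list, the share of subtelomeric ZNF148 peaks in runs of at least 3 was 45.3%. This sets ZNF148 beside p63 at equal list length, and the ends and the rest were not compared at equal density. With gaps of at most 5 kb the shares at the ends were 5.77% for p63 and 39.8% for ZNF148. Several summits within 1 interval were found in 183 subtelomeric ZNF148 peaks (4.82%, 4.18 to 5.55%), against 3.44% (3.25 to 3.63%) in the rest.

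The longest ZNF148 run lay on 9q at chr9:139393873-139524538, where 40 ZNF148 peaks in 130.7 kb had folds of 4.33 to 76.4 and 7 p63 peaks fell in the same stretch. On 17q, chr17:79949906-80074505 held 32 ZNF148 and 4 p63 peaks. On 19p, chr19:1205214-1290906 held 29 ZNF148 and 2 p63 peaks. In all, 9 ZNF148 runs of the ends had 20 or more peaks. The longest p63 runs had 8 peaks. One was on 4p at chr4:1754541-1791648, with p63 folds between 10.2 and 23.3 and 15 ZNF148 peaks in the same stretch. The other was on 9q at chr9:140166865-140208686, with p63 folds of 3.93 to 44.2 and 14 ZNF148 peaks. The next had 6 peaks each, with folds up to 61.9 on 12q at chr12:133088118-133101723 and up to 34.5 on 17q at chr17:79262973-79284130.

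The title of the series names cooperation of p63 and ZNF148, and the overlap of their peaks at the ends was examined for this reason. Of the subtelomeric p63 peaks, 203 shared at least 1 bp with a ZNF148 peak (16.7%, interval 14.7 to 18.9%), against 21.5% (20.9 to 22.03%) of the other p63 peaks and 21.2% of the whole p63 list. In the other direction, 205 subtelomeric ZNF148 peaks overlapped a p63 peak (5.40%, 4.72 to 6.16%), against 12.8% (12.4 to 13.2%) in the rest and 12.1% of the whole ZNF148 list. The larger contrast was in overlaps with summits within 25 bp. Such coincident summits were found at 69 subtelomeric p63 peaks (5.69%, 4.52 to 7.14%), against 13.97% (13.5 to 14.5%) of the other p63 peaks and 13.5% of the whole p63 list. Of the subtelomeric ZNF148 peaks, 1.82% (1.44 to 2.29%) had one, against 8.32% (8.03 to 8.62%) in the rest and 7.67% of the whole ZNF148 list.

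These contrasts were smaller or absent beside nearer stretches. In the neighbouring 3 to 6 Mb of the same arms, 18.1% (15.97 to 20.3%) of p63 peaks overlapped ZNF148 and 7.10% (5.78 to 8.70%) had coincident summits, with intervals that overlap those of the ends. For ZNF148 peaks the shares there were 8.53% (7.51 to 9.68%) and 3.34% (2.71 to 4.11%), above those of the ends. Farther in, 17.5% of p63 peaks at 3 to 5 Mb, 16.97% at 5 to 10 Mb and 16.7% at 10 to 20 Mb overlapped ZNF148, values close to the 16.7% at the ends. Beyond 20 Mb it was 23.3% (22.6 to 24.01%). The share of p63 peaks with coincident summits was 6.79% (5.28 to 8.70%) at 3 to 5 Mb, 9.15% (7.85 to 10.6%) at 5 to 10 Mb and 9.48% (8.53 to 10.5%) at 10 to 20 Mb, against 16.0% (15.4 to 16.6%) beyond 20 Mb. A low share of p63 peaks with any overlap was thus common to the outer 20 Mb, not particular to the last 3 Mb. Coincident p63 summits were less frequent at the ends (5.69%, 4.52 to 7.14%) than at 5 to 10 and 10 to 20 Mb. Those intervals do not overlap that of the ends.

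Coincident and other overlaps were also counted apart. Coincident summits were 34.0% (27.8 to 40.7%) of the subtelomeric overlaps of p63, against 65.1% (63.7 to 66.5%) elsewhere. The median distance between the summits was 50 bp at the ends and 15 bp elsewhere. Overlaps with summits farther apart were found at 11.05% (9.40 to 12.9%) of subtelomeric p63 peaks, against 7.49% (7.13 to 7.86%) of the others. Counted over ZNF148 peaks the order was the other way, with 3.58% (3.03 to 4.22%) at the ends, against 4.48% (4.27 to 4.71%) elsewhere. For p63 the nearer stretches were like the ends. At 3 to 5 Mb, 57 of 147 overlapping p63 peaks were coincident, beside 69 of 203 at the ends. At 3 to 6 Mb, 18.1% of p63 peaks overlapped ZNF148 and 7.10% were coincident, beside 16.7% and 5.69% at the ends. The p63 contrasts with the whole rest were thus not particular to the last 3 Mb. A ZNF148 summit lay within 10 kb, without overlap of the peaks, at 43.9% (41.2 to 46.8%) of subtelomeric p63 peaks, against 25.4% (24.8 to 26.0%) of the others. ZNF148 peaks were also denser at the ends (30.9 per Mb against 11.7). The shares of this paragraph were not matched for that density.

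The lower share of coincident summits was not limited to weak peaks. In the most significant of the 10 p63 rank classes, 15.9% (10.2 to 23.98%) of 107 subtelomeric p63 peaks had coincident summits, against 47.3% (45.1 to 49.4%) of 2045 others. In the second class the shares were 14.8% (9.54 to 22.1%) and 28.1% (26.2 to 30.1%). Weighted to the rank classes of the subtelomeric peaks, the other p63 peaks had a share of 13.7%, against the 5.69% found at the ends.

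The density of ZNF148 peaks around each p63 peak moved with this contrast. ZNF148 peaks were counted within 0.5 Mb on each side of a p63 summit, leaving out the nearest 10 kb, a comparison chosen after the values were seen. The median local density was 41.7 ZNF148 peaks per Mb around subtelomeric p63 peaks and 13.3 around the others, and 43.1% of the subtelomeric p63 peaks were in the densest of 10 classes of local density, against 8.02% of the others. Weighted to the same classes, the other p63 peaks had 7.23% coincident summits, which lies just above the interval for the ends (5.69%, 4.52 to 7.14%). With rank class and local density both matched, the value for the others was 6.99%, which lies within that interval. The ratio of the ends to the rest was thus 0.407 unmatched and 0.814 with both matched. For any overlap the matched value of the others was 18.5%, within the interval of the 16.7% found at the ends. For ZNF148 peaks that overlap p63 the matched value of the others was 6.55%, which lies above the interval of the 5.40% at the ends (4.72 to 6.16%). In the densest class 3.25% (2.04 to 5.14%) of 523 subtelomeric p63 peaks had coincident summits, against 3.50% (2.71 to 4.51%) of 1629 others. In the sparsest class the shares were 25% (15.2 to 38.2%) of 52 and 30.0% (28.1 to 32.0%) of 2100. The classes between were less alike. With a median of 15.3 ZNF148 peaks per Mb, 0 of 51 subtelomeric p63 peaks had coincident summits (0 to 7.01%), against 9.995% (8.79 to 11.3%) of 2101 others. With a median of 7.14 per Mb the shares were 11.6% (5.07 to 24.5%) and 20.1% (18.5 to 21.9%), and with 37.8 per Mb they were 1.32% (0.449 to 3.80%) and 3.59% (2.84 to 4.51%). With a median of 12.2 per Mb the order was the other way, 20.6% (10.3 to 36.8%) against 14.2% (12.8 to 15.8%). Base composition and gene density, which may vary with ZNF148 density, were not tested.

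**Figure D3:**
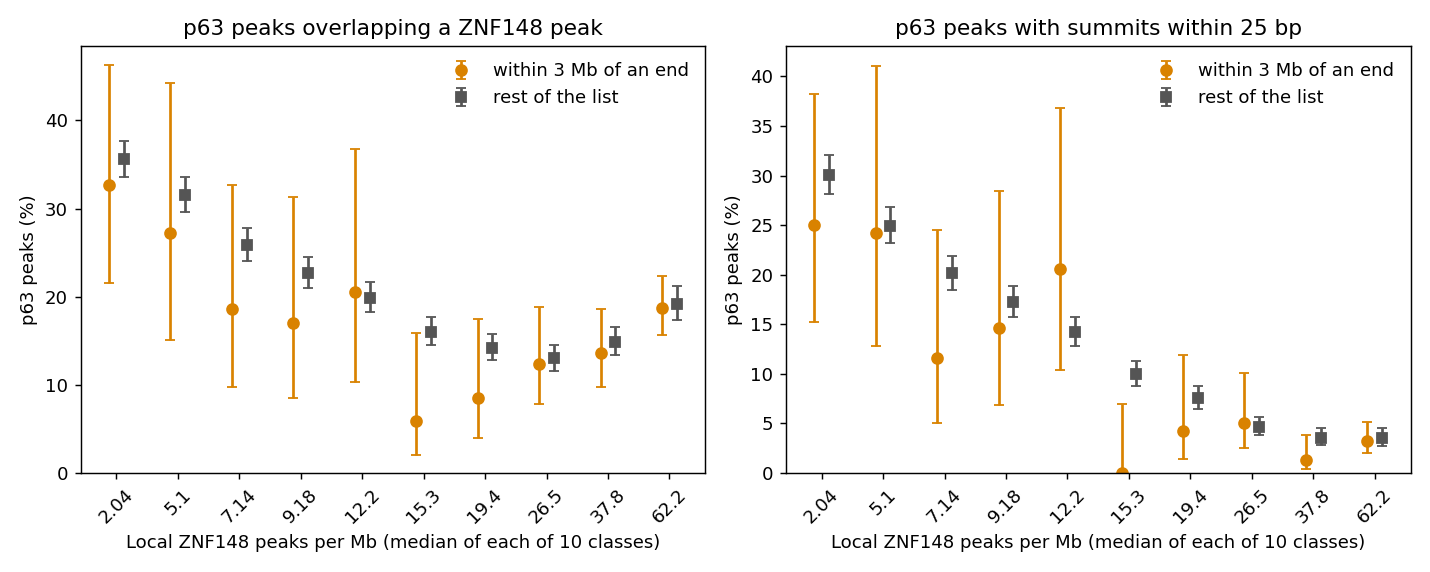
Percentage of p63 peaks that overlap a ZNF148 peak (left) and of those with summits within 25 bp (right), in 10 classes of local ZNF148 density labelled by their median in peaks per Mb, for p63 peaks within 3 Mb of an end (circles, left) and the rest of the list (squares, right) with 95% Wilson intervals. In both groups coincident summits are most frequent in the sparsest class (25% and 30.0%) and are 3.25% and 3.50% in the densest, while at 15.3 per Mb they are 0 of 51 at the ends and 9.995% elsewhere.

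Coincident summits also varied from end to end. In the 10 ends with fewest ZNF148 peaks (5 to 24 each), 26 of 118 p63 peaks had coincident summits, or 22.03% (15.5 to 30.3%). In the 10 ends with most (140 to 327 each), 16 of 495 had them, or 3.23% (1.999 to 5.19%). In the other 21 ends the number was 27 of 600, or 4.50% (3.11 to 6.47%). The share with any overlap was 25.4% (18.4 to 34.0%), 18.6% (15.4 to 22.2%) and 13.5% (11 to 16.5%) in these 3 groups of ends. The ends of 1q and 9p had 6 coincident p63 summits each and 18p and Xq 5 each, while 9q had 1 among 57 p63 peaks. On 1q, all 6 overlapping p63 peaks of 15 were coincident. No p63 peak overlapped a ZNF148 peak on 6q (0 of 27 p63 peaks, which allows a share of up to 11.1%) and 13q (0 of 21, up to 14.3%). These bounds are 3 peaks divided by the number of p63 peaks of the end, and are not Wilson intervals.

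The 10 overlapping pairs ranked highest in both lists included 9 with coincident summits, beside 69 of all 203 pairs of the ends. In the most significant p63 rank class, 17 of 46 overlapping p63 peaks were coincident at the ends and 967 of 1179 in the rest. The end of 9q held 2 of the 10 pairs, and 13 of the 203. After the 2 on 9q already named came a pair on 18p at chr18:36026-36420, with a p63 fold of 71.8, a ZNF148 fold of 60 and summits 15 bp apart. The pair on 15q at chr15:100957557-100957891 had folds of 43.5 and 50.5, with summits 15 bp apart. On 4q, chr4:190058528-190058848 had folds of 63.1 for p63 and 53.4 for ZNF148, with summits 5 bp apart. The end of 6p held a pair of them, at chr6:1434357-1434719 with summits 3 bp apart and at chr6:2423400-2423755 with summits 8 bp apart. The last 3 were on 18q at chr18:77050165-77050487 (3 bp), 8p at chr8:1555939-1556295 (1 bp) and 9p at chr9:1558717-1559042 (5 bp). Over the 10 pairs, p63 folds ran from 43.5 to 86.3 and ZNF148 folds from 47.7 to 102.5.

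At coincident summits the folds of both proteins were correlated, and at the other overlaps they were not. Across the 69 coincident pairs, Spearman's rho of the folds was 0.71, with medians of 30.6 for p63 and 25.6 for ZNF148. Across the 134 overlapping pairs with summits farther apart, rho was 0.03, with medians of 18.8 for p63 and 12.49 for ZNF148. These are descriptions across sites that share both libraries.

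**Figure D4:**
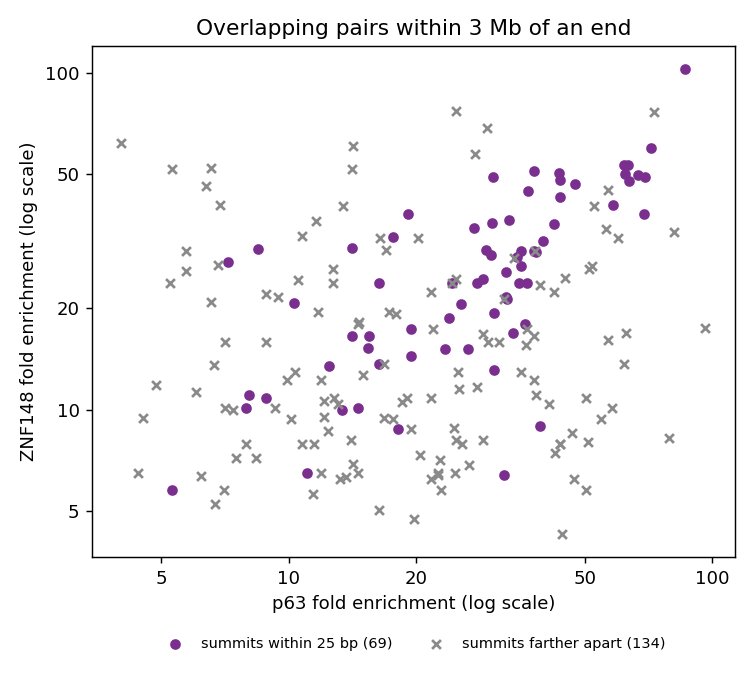
Authors' fold enrichment of p63 (x axis) against ZNF148 (y axis, both log scale) at 203 overlapping pairs within 3 Mb of an end. The 69 pairs with summits within 25 bp (circles) follow a rising trend, with a Spearman's rho of 0.71, and the 134 others (crosses) do not, with a rho of 0.03.

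Peaks were called close to the very ends of the assembled chromosomes. Distances are from the end of the hg19 sequence, which on most chromosomes opens with unassembled bases standing for the telomere. Within 100 kb of an end lay 24 p63 peaks on 17 ends and 56 ZNF148 peaks on 24 ends. The p63 peaks had a median fold of 16.8 (quartiles 11.3 and 22.3) and the ZNF148 peaks one of 9.02 (6.78 and 12.2). Over the whole outermost 0.5 Mb the median fold was 11.45 for 143 p63 peaks and 8.75 for 429 ZNF148 peaks. The outermost p63 peak was on 17q, 9.50 kb from the end, with a fold of 16.8. The outermost ZNF148 peak was on 9p, 10.4 kb from the end, with a fold of 5.05. Over the 41 ends, the first p63 peak lay at a median of 119.9 kb (9.50 to 398.4 kb) and the first ZNF148 peak at a median of 81.9 kb (10.4 to 851.5 kb). Reads from blocks copied between ends can be placed on either copy, and the handling of such reads is not given.

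Within 25 kb of an end both lists had 7 peaks. The 7 p63 peaks were on 7 different ends and alike in fold (16.7 to 25.1) and length (259 to 300 bp). Their −log10 q values ran from 38.06 on 19q to 126.3 on 5p. Whether these p63 peaks are separate sites or copies of a sequence counted on several ends was not tested. On 1q, 10q, 19q and 21q they lay at 20.6 to 21.8 kb from the end, and on 5p and 4p at 14.8 and 16.5 kb. None of the 7 overlapped a ZNF148 peak, against 16.7% of all subtelomeric p63 peaks. With 7 peaks these shares cannot be told apart. The nearest ZNF148 summit was 18.3 to 109.4 kb away. The ZNF148 peaks at these distances were on other ends, namely 9p, 8p, 15q and 2q.

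A regular series of ZNF148 peaks stood near the end of 10q. Its 6 outermost ZNF148 summits lay at 39.5, 42.8, 46.0, 49.4, 52.7 and 56.0 kb from the end, with folds of 5.77 to 9.38. The 5 spacings between them were 3306, 3248, 3315, 3359 and 3322 bp. The whole ZNF148 list held no other series of more than 2 consecutive spacings between 3200 and 3400 bp. That window encloses the spacings of the 10q series itself, and the count does not cover regular series at other spacings. No p63 peak lay among them, the outermost p63 peak of 10q being at 21.1 kb with a fold of 25.1. The ends of 10q and 4q are both known to carry arrays of the macrosatellite repeat D4Z4. On 4q the first ZNF148 peak was 140.7 kb from the end, and this distance does not tell whether the 4q array has such peaks. The repeat annotation of hg19 was not used here, so the peaks were not matched to the repeat.

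The outermost overlapping pairs of 10p and 18p had similar surroundings. On 18p the p63 and ZNF148 summits lay at 36.2 kb from the end with folds of 71.8 and 60. On 10p they lay at 81.9 kb, 8 bp apart, with folds of 58.3 for p63 and 40.5 for ZNF148. The shift in distance between the 2 ends was 45627 bp for the p63 peak and 45634 bp for the ZNF148 peak. A further ZNF148 peak followed at 89.0 kb on 10p and at 43.4 kb on 18p, a shift of 45581 bp, with folds of 12.3 and 13.8. Whether the pairs of these ends are 2 sites or 1 site counted on copies of a sequence was not tested.

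**Figure D5:**
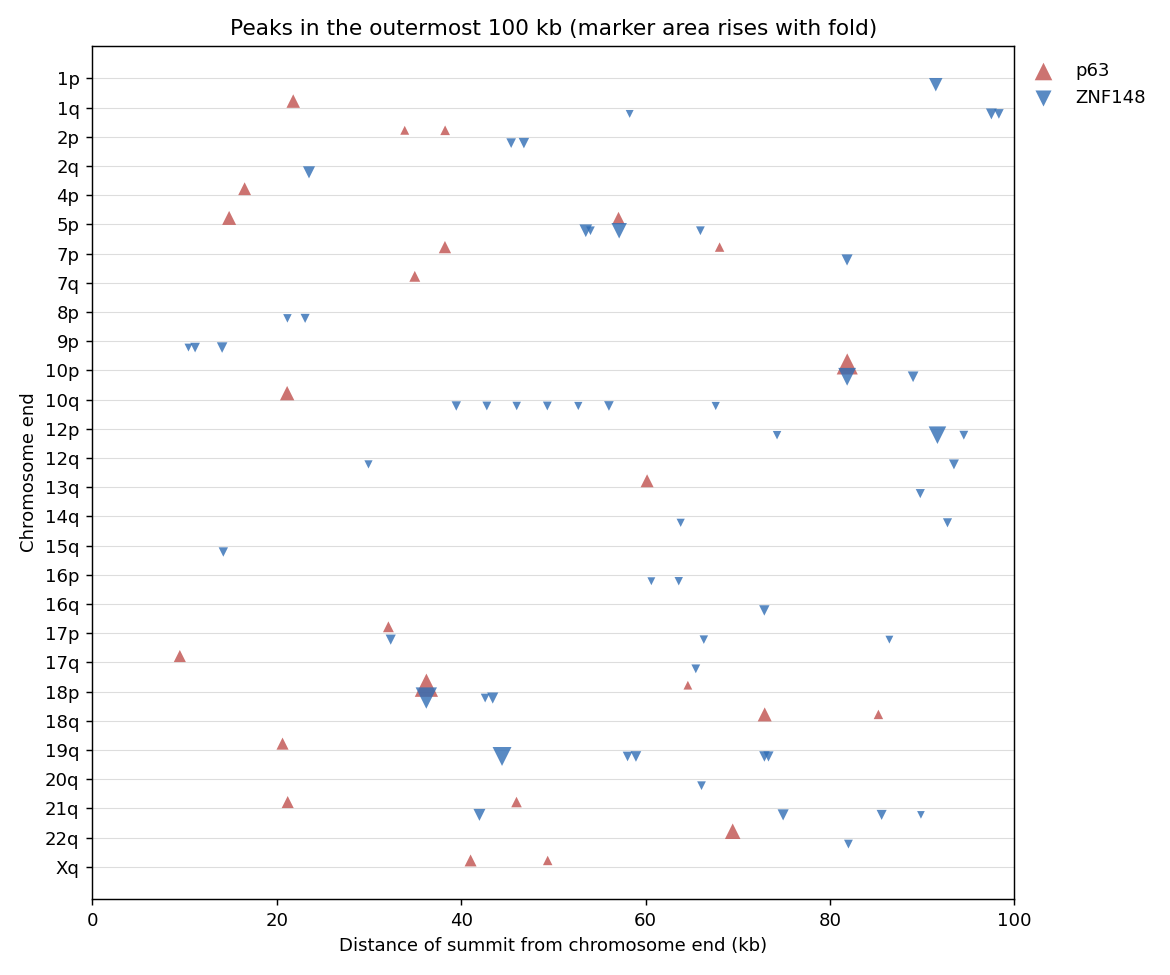
Distance of each summit from the chromosome end in kb (x axis) for the p63 peaks (upward triangles) and ZNF148 peaks (downward triangles) in the outermost 100 kb, by chromosome end; marker area rises with fold. The coincident pairs of 10p and 18p, the row of 6 evenly spaced ZNF148 peaks on 10q and the p63 peaks at 20.6 to 21.8 kb on 1q, 10q, 19q and 21q can be seen.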

How the data were processed

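ChIP-seq peak lists of FaDu cells were used as the authors deposited them, 1 per antibody. Per the submitters' processing notes, the genome build was hg19 and the tools included MACS2 2.2.6, Bowtie2 2.3.4.3 and SAMtools 1.7. Their settings, the control library and the treatment of duplicate and multiply placed reads are not given in the sources used here. Columns were read in the narrowPeak order. The deposited fold enrichment is a ratio over local background, and the deposited −log10 q values, rather than the −log10 p values, ranked peaks within a list. The deposited score was not used. Rows of 1 interval were joined, keeping the most significant summit. Chromosome lengths were those of hg19. Sharing means an overlap of at least 1 bp, and coincident summits lie within 25 bp. Positions are 1-based. Overlap, distance and run functions were tested on simulated data. The named peaks were the 10 most significant of each list, the 10 best pairs, the extreme ends and the longest runs. The 10q series and the 10p and 18p pairs were chosen after their values were seen. Members, lists and comparisons were chosen with earlier results of these data known. Promoter and motif content were not analysed here. Calculations used Python 3.11.15, numpy 2.4.6, pandas 2.3.3, scipy 1.17.1 and bedtools 2.31.1.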

Additional observations from a re-analysis of the deposited data

How the results depend on the processing

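The values of this paragraph lay outside the counting interval of the result they belong to, which stands in parentheses, and no density ratio fell below 1 under any alternative. Shares and median folds have no direction. The p63 density ratio (1.42) was 1.26 with a limit of 1 Mb and 1.01 against the neighbouring 3 to 6 Mb. This ratio of 1.01 sets 1213 p63 peaks beside 1197, nearly the same count, and no interval was computed for it. The ZNF148 density ratio (2.64) was 2.34, 2.88 and 2.43 with limits of 1, 2 and 5 Mb, 2.45 with a −log10 q of at least 10, 2.46 with a fold of at least 10 and 1.49 against 3 to 6 Mb. The last 2 list limits left 9.38% and 9.40% of ZNF148 peaks subtelomeric (10.0%). The share of subtelomeric ZNF148 peaks overlapping p63 (5.40%) was 6.22% with a limit of 5 Mb, 7.11% with a −log10 q of at least 10 and 7.07% with a fold of at least 10. It was 8.06% with lists of equal length, 3.71% with 50% of both peaks covered and 3.69% with a summit limit of 100 bp, and for p63 (16.7%) these 3 settings gave 13.3%, 11.6% and 11.5%. Coincident p63 summits (5.69%) became 7.29% with a fold of at least 10 and 8.49% with a limit of 50 bp. In runs with gaps of at most 5 kb were 5.77% of p63 and 39.8% of ZNF148 peaks (15.7% and 61.6%), and 45.3% of ZNF148 peaks with lists of equal length.

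Alternatives added after the data were seen matched the rest of the list to the ends. For coincident p63 summits the ratio (0.407) was 0.787 with local ZNF148 density matched, 0.814 with rank class too, 0.748 with windows of 0.25 Mb and 0.829 with windows of 1 Mb. For p63 overlaps (0.780) the values were 0.895, 0.907, 0.892 and 0.917. For ZNF148 overlaps (0.421) they were 0.744, 0.824, 0.706 and 0.761, and 0.496 with rank class alone. Leaving out each chromosome in turn gave 5.38 to 6.02% of p63 and 9.53 to 10.7% of ZNF148 peaks as subtelomeric. The density ratios were 1.37 to 1.46 for p63 and 2.5 to 2.73 for ZNF148. Overlap was 16.2 to 17.3% for p63 and 5.21 to 5.59% for ZNF148, coincident p63 summits 5.22 to 6.04%, and the median fold 13.7 to 14.1 for p63 and 9.38 for ZNF148. The cause of these shifts was not tested. No paired analysis was possible because each antibody has 1 list.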
